A study of Homo sapiens with 5 samples.

Results

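Binding of the transcription factor TEAD4 was described at 10 genes of the smooth muscle contractile apparatus in LX-2 cells, namely ACTA2, TAGLN, CNN1, MYL9, MYLK, TPM1, TPM2, CALD1, ACTN1 and MYH9. A TEAD4 peak was counted for a gene when its summit lay in the gene body or within 50 kb of any annotated transcription start site (TSS) of the gene. By this rule 61 of the 21113 peaks in the list belonged to the 10 genes. They were spread over 9 of these genes, and CNN1 had none. The genes were listed by name, and the list was made with earlier results of these data known.

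LX-2 is an immortalised human hepatic stellate cell line, used as a model of myofibroblastic hepatic stellate cells (MF-HSCs), and it stands for a single line kept in serum-containing culture. Chromatin immunoprecipitation followed by sequencing (ChIP-seq) was made from 3 TEAD4 samples and 2 input samples, of which 1 input served replicates 1 and 2 and the other replicate 3. All 5 samples were labelled as treated with the solvent DMSO, so that no treatment was compared. The list combines replicates 1 and 3, since the study's methods leave out replicate 2 as discordant, and it gives 1 value per peak with no value per replicate. The depth per sample is therefore unknown, no spread between replicates could be computed, and all comparisons are descriptions without a test. Expression was not measured in these samples. Each peak carries a signal value, which is the peak caller's own measure of enrichment without a unit and ranged from 6.6 to 1074.4 over all peaks. Each also carries a score for the irreproducible discovery rate (IDR), which ran from 830 to a cap of 1000 for the most reproducible peaks. Positions are on hg38, and genes and TSSs are those of GENCODE release 44. The MANE Select TSS is the start of the reference transcript of a gene.

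Myofibroblasts contract through actin stress fibres that resemble the contractile apparatus of smooth muscle. Myosin II slides along actin filaments once its light chain is phosphorylated by myosin light chain kinase, while tropomyosins, caldesmon, calponin and transgelin decorate the actin filament and α-actinin cross-links it. In hepatic stellate cells, α-smooth muscle actin, encoded by ACTA2, is the classical marker of activation. TEAD4 belongs to the TEAD family, which binds the sequence ACATTCC, a form of the muscle CAT element, and works with the coactivators YAP1 and TAZ. Many contractile genes are also known targets of serum response factor (SRF), which binds the CArG box, an element of 6 A or T bases between CC and GG. AP-1, a family of FOS and JUN dimers that often shares sites with TEAD factors, binds TGACTCA or TGAGTCA.

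The sequences around 6 of the summits are printed here on the forward strand of hg38, as examples of the 12 peaks that held a TEAD motif. Capitals mark each match to the TEAD motif, the AP-1 motif or the CArG box, and GGAATGT is ACATTCC read from the other strand. Matches to the RUNX and E-box motifs, which are described further below, are not marked. The window of MYH9 held a CArG box beside a TEAD motif. The other 5 were the peaks with a TEAD motif that had the highest signal values in TPM2, MYLK and ACTN1, and in CALD1 the one with 3 TEAD matches and the one with both a TEAD and an AP-1 motif.
MYH9 intron, chr22:36329529-36329729, CArG box then TEAD motif: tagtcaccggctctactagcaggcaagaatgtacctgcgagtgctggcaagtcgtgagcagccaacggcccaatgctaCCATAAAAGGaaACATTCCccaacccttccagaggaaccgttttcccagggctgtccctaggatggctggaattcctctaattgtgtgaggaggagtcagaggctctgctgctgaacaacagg
CALD1 upstream region, chr7:134742336-134742536, 3 TEAD motifs: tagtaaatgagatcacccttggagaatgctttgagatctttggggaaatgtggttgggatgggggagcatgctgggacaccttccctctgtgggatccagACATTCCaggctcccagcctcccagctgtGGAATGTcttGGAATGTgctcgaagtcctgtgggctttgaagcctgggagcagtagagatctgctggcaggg
CALD1 intron, chr7:134920023-134920223, TEAD then AP-1 motif: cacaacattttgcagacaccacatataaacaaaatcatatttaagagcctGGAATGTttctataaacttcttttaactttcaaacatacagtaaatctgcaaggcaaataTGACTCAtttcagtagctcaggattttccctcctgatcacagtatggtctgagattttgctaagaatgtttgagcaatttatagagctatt
TPM2 distal region in TLN1, chr9:35728011-35728211, 2 TEAD motifs: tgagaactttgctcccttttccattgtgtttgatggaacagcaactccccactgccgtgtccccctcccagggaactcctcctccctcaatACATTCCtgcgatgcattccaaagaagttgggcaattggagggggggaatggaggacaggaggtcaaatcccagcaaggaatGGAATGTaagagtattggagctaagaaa
MYLK intron, chr3:123816724-123816924, 1 TEAD motif: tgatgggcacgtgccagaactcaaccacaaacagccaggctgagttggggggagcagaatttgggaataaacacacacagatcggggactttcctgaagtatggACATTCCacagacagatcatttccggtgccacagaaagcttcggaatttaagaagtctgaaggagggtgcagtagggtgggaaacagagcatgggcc
ACTN1 intron, chr14:68940097-68940297, 1 TEAD motif: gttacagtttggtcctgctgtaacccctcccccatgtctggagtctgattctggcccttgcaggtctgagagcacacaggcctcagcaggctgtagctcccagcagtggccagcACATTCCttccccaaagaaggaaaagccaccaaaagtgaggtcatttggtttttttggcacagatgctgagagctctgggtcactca

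Among the actin-binding and actin genes, TEAD4 peaks were fewer at ACTA2, TAGLN and CNN1 than at TPM1 and CALD1. Of all protein-coding genes, 19.4% had more peaks than ACTA2, 33.2% more than TAGLN and 56.1% more than CNN1. The density of peaks at ACTA2, 1.44 per 100 kb, was exceeded by 26.2% of genes. ACTA2, α-smooth muscle actin (chr10:88935074-88991339, reverse strand), had 2 peaks, at signal values of 35.6 and 33.8. Both lay below the 25th percentile of all peaks (46.1) and had IDR scores of 833 and 844, near the lowest in the list, so that none was left when only peaks with the highest score were kept. The first summit, at 88932847, was 2227 bp beyond the 3′ end of ACTA2, in an intron of STAMBPL1 and an exon of the antisense RNA ACTA2-AS1. The second, at 88979412, lay in an intron shared with FAS, a death receptor gene, whose nearest TSS was 2565 bp away. No peak was within 2500 bp of an ACTA2 TSS, and the summit closest to its MANE Select TSS was 19926 bp downstream. Neither ACTA2 peak held a TEAD motif, an AP-1 motif or a CArG box.

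TAGLN, which encodes transgelin (SM22α), an actin-binding protein (chr11:117199370-117207464, forward strand), had 1 peak, placed at the promoter. Its summit, at 117199164, was 206 bp upstream of the TSS, its signal value was 234.2, and it ranked 1365 of the 21113 peaks by signal. CNN1, which encodes the smooth muscle calponin (chr19:11538767-11550323, forward strand), had no peak. The summit closest to any CNN1 TSS was 191421 bp away, with a signal value of 64.6, and ZNF823 was the protein-coding gene nearest to it. TAGLN and CNN1 thus differed in the presence of a promoter peak, although both had windows of similar length, 103.8 and 109.1 kb.

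TPM1, a tropomyosin that lies along the actin filament (chr15:63042620-63071915, forward strand), had 12 peaks in a window of 119.5 kb. Its peaks stood at 10.04 per 100 kb, and only 6 protein-coding genes had a higher density, which is 0.0299% of them. The peak with the highest signal value of all 61 was counted for TPM1. It reached 631.8, rank 41 of the list, with its summit at 63108148 in an intron of a long non-coding RNA. That summit was 46040 bp from the nearest TPM1 TSS, that of a retained-intron transcript, and 65401 bp from the MANE Select TSS. The nearest protein-coding TSS was that of LACTB, a mitochondrial protein gene, at 13685 bp. By contrast, the summit closest to the promoter, 44 bp upstream of the MANE Select TSS and inside the UTR of another transcript, had a signal value of 54.9. Upstream, a summit 3498 bp before the first TSS reached 229.0, and within the gene the summits at 63045102, 63053597 and 63051351 had 114.1, 68.2 and 31.9. Of the 12 peaks, 4 had LACTB as the nearest protein-coding gene, and the count fell to 8 when 1 TSS per gene was used.

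TPM2, the β-tropomyosin gene (chr9:35681992-35690056, reverse strand), had 4 peaks, and none had TPM2 as the nearest protein-coding gene. The strongest, at 35728111 with a signal value of 247.6, was 38186 bp upstream of the MANE Select TSS in an intron of TLN1, which encodes the focal adhesion protein talin. A second TLN1 summit had 43.1. The remaining summits had 63.2, at 399 bp from the TSS of CCDC107, and 45.7, in an intron of ARHGEF39. The summit closest to TPM2 was 23686 bp from its MANE Select TSS. The assignment of these 4 peaks to TPM2 rests on distance alone, since the list holds no measure of which gene a peak acts on.

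CALD1, caldesmon, an actin- and myosin-binding inhibitor of contraction (chr7:134744252-134970729, forward strand), had 9 peaks, all with CALD1 as the nearest protein-coding gene. Their median signal value, 111.4, was the highest among the genes with more than 1 peak. The strongest, 303.1, was at 134742436, 1816 bp upstream of the most upstream TSS, and held 3 TEAD motifs. At the MANE Select promoter, a summit 92 bp upstream of the TSS reached 237.4 and held neither a TEAD nor an AP-1 motif. The intronic summit at 134920123, 443 bp before the TSS of a shorter transcript, had 151.0. CALD1 thus had peaks at 3 of its alternative starts, each within 2500 bp. The other 6 peaks ranged from 33.0 to 122.4.

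**Figure D1:**
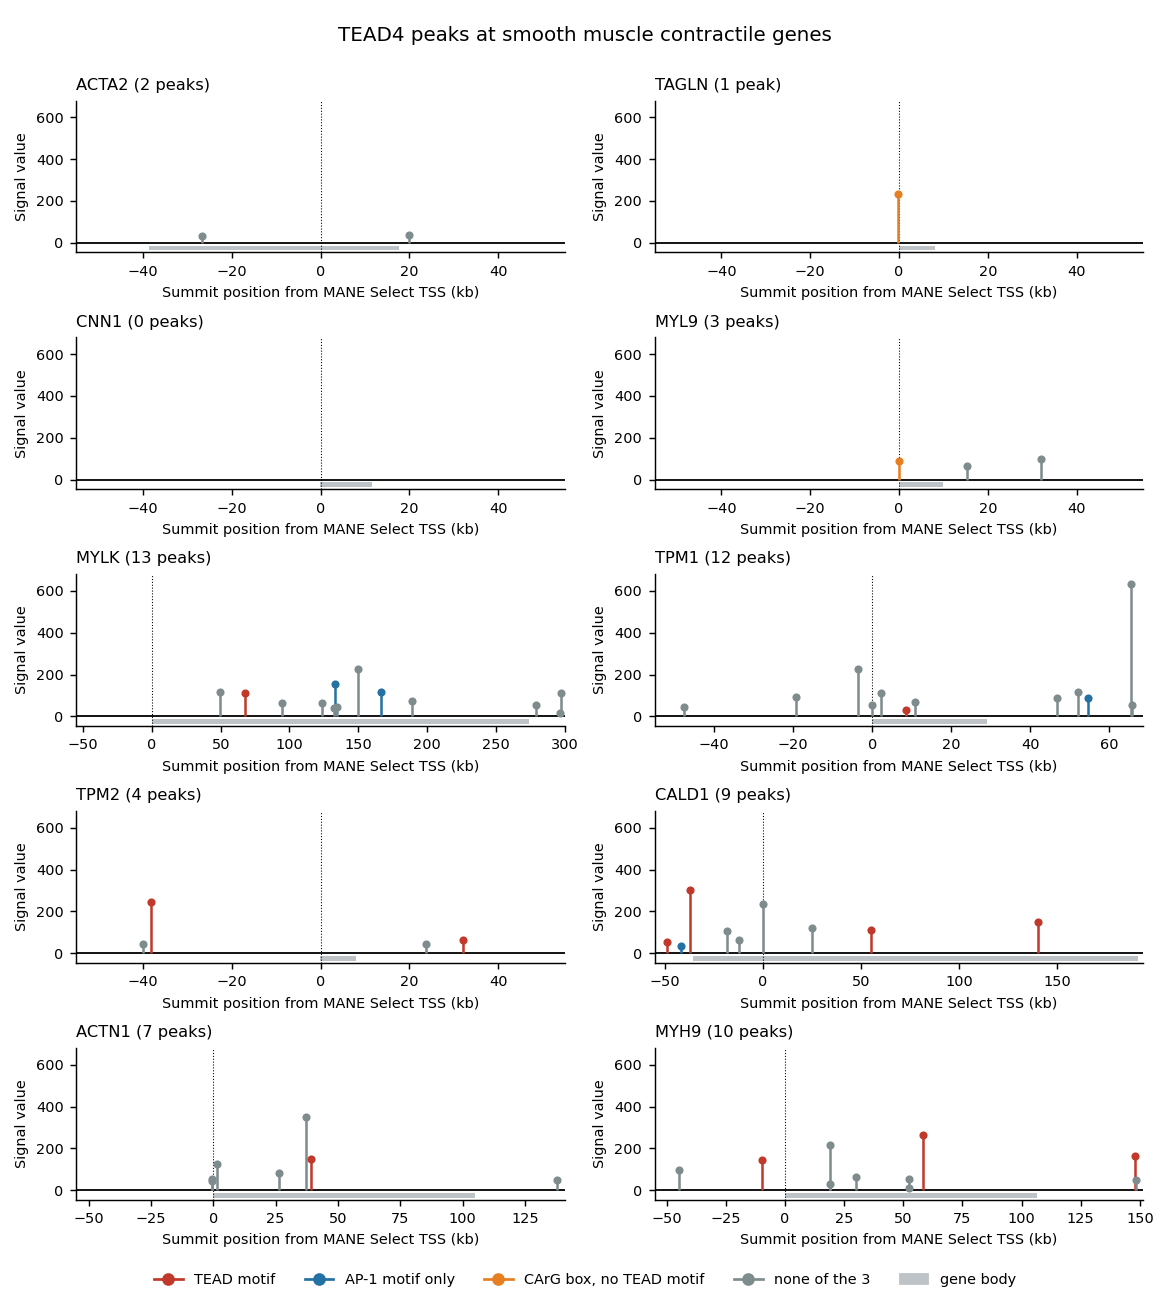
Position of each TEAD4 summit relative to the MANE Select TSS (x axis, kb, in the direction of transcription) and its signal value (y axis, no unit) for the 10 genes. Stems are peaks coloured by motif, the grey bar is the gene body and the dotted line the TSS. CNN1 has no stem, TAGLN a single stem at the TSS, and the tallest stem, 631.8, is downstream of TPM1.

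At the genes of the myosin motor and its switch, peaks were placed at the promoter of MYL9 and mostly in introns of MYLK and MYH9. MYL9, a regulatory light chain of myosin II (chr20:36541497-36551447, forward strand), had 3 peaks with signal values of 87.2, 63.7 and 97.1. The 87.2 peak was at the promoter, with its summit at 36541426, 93 bp upstream of the MANE Select TSS. The 63.7 peak was 15217 bp downstream of that TSS. The 97.1 peak was 31857 bp downstream and only 112 bp from the TSS of TGIF2, a homeobox repressor gene. The promoter peak of MYL9 was thus weaker than that of TAGLN.

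MYLK, which encodes myosin light chain kinase (chr3:123610049-123884332, reverse strand), had 13 peaks, the highest number among the 10 genes. Of the 20046 protein-coding genes, 75 had more, or 0.374%. MYLK also had the longest window, 368.7 kb, and the most TSSs, 52, and at 3.53 peaks per 100 kb it was exceeded by 5.16% of genes. Of the 13 summits, 10 lay in the gene body. The strongest, 227.2 at 123734316, was in a MYLK exon outside annotated coding sequence and UTRs. It was 1454 bp from the nearest MYLK TSS, that of a retained-intron transcript. Within a span of 1720 bp, 3 intronic summits stood side by side, with 45.2, 155.5 and 38.9. No summit was near the MANE Select TSS, the closest being 49481 bp downstream with a signal value of 115.4. At 2 summits 199 bp apart, with 111.5 and 16.0, the nearest protein-coding gene was HACD2.

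MYH9, the heavy chain of non-muscle myosin IIA (chr22:36281280-36388010, reverse strand), had 10 peaks, or 4.95 per 100 kb, a density exceeded by 1.68% of genes. The strongest, 262.6, was intronic at 36329629 and was the only one of the 61 with both a TEAD motif and a CArG box. A second intronic summit, at 36368788, reached 215.3. Upstream of the gene, a summit 9650 bp before the MANE Select TSS had 143.5. The summit at 36240086, with 165.2, was 132 bp from a TSS of APOL2, an apolipoprotein L gene, and so was assigned to MYH9 by the 50 kb reach only. MYH9 also had the weakest of the 61 peaks, 9.2 at 36335646, which was the only one with a q-value above 0.05. Its IDR score was nevertheless 1000, the cap, and it overlapped a stronger peak with its summit at 36335435.

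ACTN1, α-actinin, which cross-links actin filaments at focal adhesions (chr14:68874128-68979440, reverse strand), had 7 peaks, all with ACTN1 as the nearest protein-coding gene. The strongest, 349.7 at 68942061, was intronic, 37241 bp downstream of the MANE Select TSS, and ranked 466 in the list. It held no TEAD or AP-1 motif within 100 bp. A neighbouring summit at 68940197 had 151.2 and 1 TEAD motif. Around the start of the gene, summits 1410 bp downstream and 523 and 724 bp upstream of the MANE Select TSS had 123.4, 54.4 and 44.1. The first of these was above the 75th percentile of all peaks (113.6) and the other two were below their median (68.1).

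**Figure D2:**
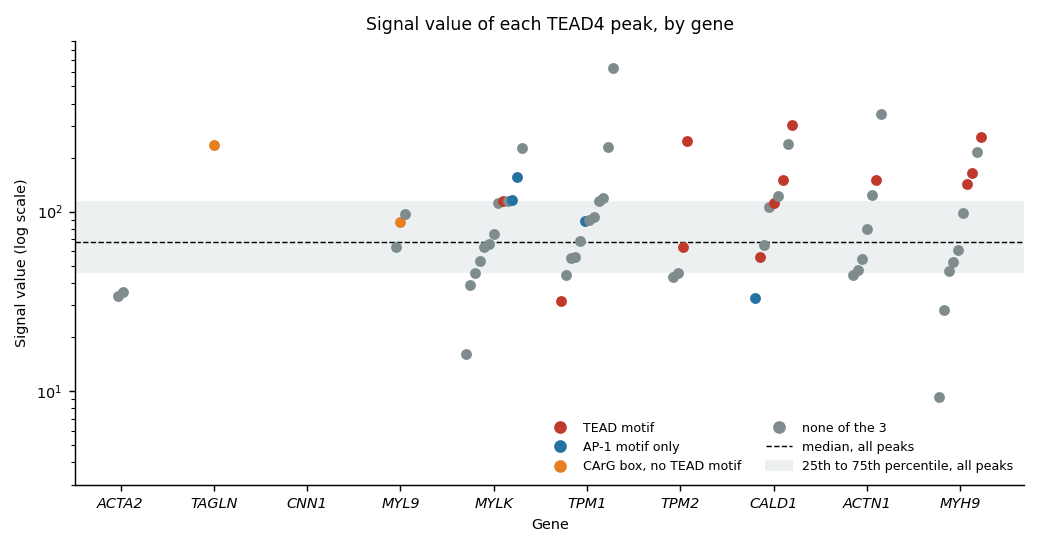
Signal value of each of the 61 peaks (y axis, log scale, no unit) by gene (x axis), coloured by motif. The dashed line is the median of all 21113 peaks, 68.1, and the grey band runs from their 25th to their 75th percentile, 46.1 to 113.6. Both ACTA2 peaks lie under the band, and the CALD1, ACTN1 and MYH9 peaks run from below to above it.

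Set against all protein-coding genes, the contractile genes more often had a peak and more often had many. At least 1 peak was counted for 9 of the 10 genes and for 56.1% of the 20046 protein-coding gene records. A peak within 2500 bp of a TSS was counted for 7 genes (TAGLN, MYL9, MYLK, TPM1, CALD1, ACTN1 and MYH9), against 16.6% of all. For MYLK and MYH9 this TSS was that of an alternative transcript. The numbers of genes with 7 or more peaks, a level chosen after the values were seen, were 5 of the 10 (MYLK, TPM1, MYH9, CALD1 and ACTN1) against 3.07% of all. A peak with a TEAD motif was counted for 6 genes (MYLK, TPM1, TPM2, CALD1, ACTN1 and MYH9), against 24.2%. The median gene of the list had 5.5 peaks and the median protein-coding gene 1, with 4 at the 90th percentile and 32 at most.

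The windows in which peaks were counted were somewhat longer for the contractile genes, with a median of 129.0 kb against 112.4 kb. Per 100 kb, the contractile genes had a median of 3.25 peaks and all protein-coding genes 0.66, with 2.74 at the 90th percentile. The contractile genes also had more annotated starts, with a median of 14.5 TSSs against 5. The part of this in the counts, and in the shares within 2500 bp of a TSS, was not tested. With 1 TSS per gene, 50 of the peaks were still counted. Over the pooled windows of the contractile genes this was 3.29 per 100 kb, beside 3.45 with every TSS. The value over all protein-coding genes with 1 TSS is not given here. With a reach of 10 kb the number of contractile peaks was 39, and 34 remained when peaks under the list's median signal were dropped.

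The 61 peaks were divided between gene bodies and flanks. In all, 31 summits lay in the body of their gene, of which 27 in introns, 3 in UTRs, 1 in another exon and none in coding sequence, and 30 lay outside. Within 2500 bp of any TSS of their gene there were 16 summits, and within 2500 bp of the MANE Select TSS 8, from TAGLN, MYL9, TPM1, CALD1 and ACTN1. Counting the TSSs of all protein-coding genes, 24 of the 61 (39.3%, Wilson 95% interval 28.07 to 51.88) were within 2500 bp, against 24.8% of the 16031 peaks that the same rule assigned to any protein-coding gene. The nearest protein-coding TSS belonged to the contractile gene for 47 summits and to another gene for 14, those of TPM2, TPM1, MYLK, MYH9, MYL9 and ACTA2. The intervals given here cover counting error only, and peaks of 1 gene are not independent of each other.

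The median signal value of the 61 peaks was 87.2 (95% interval of the median 63.2 to 111.5), and that of all peaks was 68.1 (67.2 to 68.9). The lower bound of the former was below the latter, so the levels were not separated at this number of peaks. Of the 61, 34 (55.7%) were above the median of the list, and 51 (83.6%) had the highest IDR score, against 76.1% of all peaks. These 51 included the MYH9 peak with a q-value above 0.05. In addition, 5 pairs of the peaks overlapped, at MYLK, TPM1, ACTN1 and MYH9, with 199 to 243 bp between their summits, and 2 of the pairs shared the same interval, so the 61 summits stood for 56 separate regions.

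The TEAD motif was found in a share of the contractile peaks close to that in the list as a whole. It was within 100 bp of 12 of the 61 summits (19.7%, 11.63 to 31.31), against 23.0% of all peaks. In flanking windows, equally wide and 2000 bp from each of the 61 summits on both sides, it was found in 4 of 122 (3.28%), and around all peaks in 2.82%. CALD1 had 4 of these peaks, MYH9 3, TPM2 2, and MYLK, TPM1 and ACTN1 1 each. The 12 peaks held 15 matches, and 9 of them were centred within 15 bp of the summit. The same letters in reversed order, CCTTACA, were found at 2 summits (3.28%) and in 2.0% of all peaks.

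Peaks with the TEAD motif had a median signal value of 147.2 (31.9 to 303.1) and the 49 without it 68.2 (9.2 to 631.8), so the ranges overlapped. Over all peaks these medians were 82.2 and 64.6. The strongest peaks of TPM1 (631.8), ACTN1 (349.7), TAGLN (234.2) and MYLK (227.2) had no exact TEAD motif, whereas those of CALD1, MYH9 and TPM2 had 3, 1 and 2.

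With peaks counted by the 50 kb rule, the AP-1 motif was less frequent at the contractile genes than in the list. It was within 100 bp of 5 of the 61 summits (8.2%, 3.55 to 17.79), against 25.4% of all peaks (24.82 to 25.99), and in 3.28% of the windows 2000 bp away. CALD1 and MYLK had 2 of these peaks each and TPM1 had 1. A TEAD and an AP-1 motif occurred together at 1 summit only, the CALD1 intron at 134920123, and 45 summits had neither. Over all peaks the AP-1 motif was found in 16.7% of those within 2500 bp of a protein-coding TSS and in 27.4% of those farther away. In the contractile peaks the values were 1 of 24 (4.17%, 0.74 to 20.24) and 4 of 37 (10.8%, 4.29 to 24.71). The share of the contractile peaks was thus the lower one both near TSSs and farther away, and with 24 peaks near them the interval there reached above the share of all peaks. Whether the gap differed with distance was not tested. With a reach of 100 kb around a TSS, the AP-1 share was 18.6% of 86 peaks. No interval was computed for this share, so whether it was separated from the 25.4% of all peaks was not tested.

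**Figure D3:**
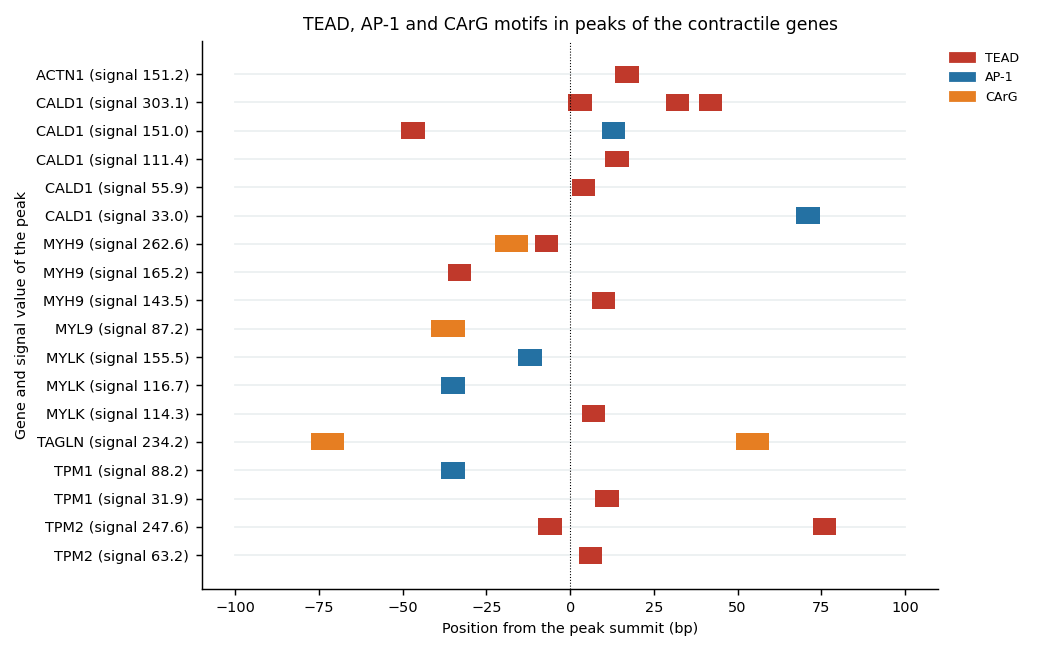
Position of TEAD, AP-1 and CArG matches (coloured bars, drawn to length) around the summit (x axis, bp, in the direction of the forward strand) for the 18 peaks that held any of them (y axis, gene and signal value). Most TEAD bars lie next to the summit, and the TAGLN peak has a CArG box on each side.

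The CArG box was found at 3 of the 61 summits (4.92%, 1.69 to 13.49), against 1.58% of all peaks. In TAGLN there were 2 matches, centred 278.5 and 151.5 bp upstream of the TSS and on either side of the summit. In MYL9 there was 1, centred 129.5 bp upstream of the MANE Select TSS and 36.5 bp from the summit. In MYH9 the match CCATAAAAGG was intronic, centred 17.5 bp from the summit, with 2 bases between it and the TEAD motif. The interval rests on 3 peaks, and its lower bound was just above the share of all peaks. In the windows 2000 bp away, 3 of 122 (2.46%, 0.84 to 6.98) had a match, and the intervals of the summits and the windows overlapped.

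Promoters were also searched without regard to peaks, from 250 bases before to 50 after the MANE Select TSS. A CArG box was present in 1.21% of 19061 promoters, and among the contractile genes in those of TAGLN and MYL9. No contractile gene had ACATTCC or an AP-1 motif in this stretch, which 2.3% and 3.54% of all promoters did. The shorter core CATTCC, present in 11.3%, was found in the promoters of CALD1, ACTA2, TPM1 and MYH9. Of these, CALD1 and TPM1 had a peak at that TSS and ACTA2 and MYH9 had none. A match is a description of the letters and not evidence of a bound site.

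For other factors, the RUNX motif TGTGGTT was within 100 bp of 7 summits (11.5%, 5.67 to 21.84), against 9.53% of all peaks. The E-box CAGATG was found at 11 (18.0%, 10.38 to 29.47), against 16.7%, and in 18.9% of the windows 2000 bp from the contractile summits. Neither share was separated from that of the list. The contractile peaks had a median GC content of 49.3% and all peaks 44.8%.

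The distance limit left out some peaks near the contractile genes. The first summit beyond 50 kb was at 51879 bp for MYH9, with a signal value of 182.7 and TXN2 as the nearest protein-coding gene, at 52954 bp for CALD1 (60.3) and at 56699 bp for TPM1 (50.9). Among counted peaks outside the gene body, the farthest from a TSS of the gene were at 46504 bp for MYH9 (46.8), 13439 bp for CALD1 (55.9) and 47404 bp for TPM1 (44.6). For TAGLN the next summit was 70640 bp away (53.3), and for ACTA2 271314 bp (57.0). The next summits of MYH9, CALD1 and TPM1 thus lay just past the limit, and that of ACTA2 far past it.

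Relatives of the contractile genes and other genes of the same machinery were counted by the same rule. Of 16 paralogues in smooth muscle or non-muscle cells, 12 had a peak and 9 had one within 2500 bp of a TSS. CNN3, the acidic calponin, had the most with 11, and MYL12B and MYL12A, which encode further myosin regulatory light chains, had 10 and 9 and share peaks, the strongest at 670.8. ACTG2, TPM3, MYH10 and MYH14 had none. Peaks were thus present at CNN3 and absent at CNN1 within the calponin family, and present at TPM1 and absent at TPM3 among the tropomyosins.

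Of 15 regulators of contraction, 12 had a peak, 3 of them within 2500 bp of a TSS. ROCK2, a kinase that favours contraction, and CALM2, a calmodulin gene, had 6 each, and RHOA and PPP1R12A, the latter the targeting subunit of myosin phosphatase, had 5 each. CALM3 and ARHGEF1 were among those with none. All 15 of the other smooth muscle and stress fibre genes had a peak, led by LPP with 20, PALLD with 13 and PDLIM5 with 10, which encode proteins of adhesions and stress fibres. The windows of these genes were long, at 787.4, 524.5 and 266.4 kb, against a median of 124.3 kb for their list. Per 100 kb, LPP had 2.54 peaks, PALLD 2.48 and PDLIM5 3.75. Of 20 striated muscle genes, 10 had a peak, led by MYL3 with 5 and TNNI1 with 3, while MYL2 and TNNT2 had 2 each. Those without were ACTA1, ACTN2, MYH6, MYH7, MYL1, TNNT1, TNNI3, NEB, MYBPC3 and CKM. Neighbours in these lists share peaks, as do TNNT2 with TNNI1 and MYH1 with MYH2.

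The contractile genes had the highest median density of the 5 lists, 3.25 peaks per 100 kb. The medians were 2.38 for the paralogues, 1.91 for the stress fibre genes, 1.0 for the regulators and 0.14 for the striated muscle genes, against 0.66 for all protein-coding genes. The lists overlapped in their ranges, since CNN1, 4 paralogues and 3 regulators stood at 0. All 5 lists were chosen with earlier results of these data known, so their order is a description only.

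**Figure D4:**
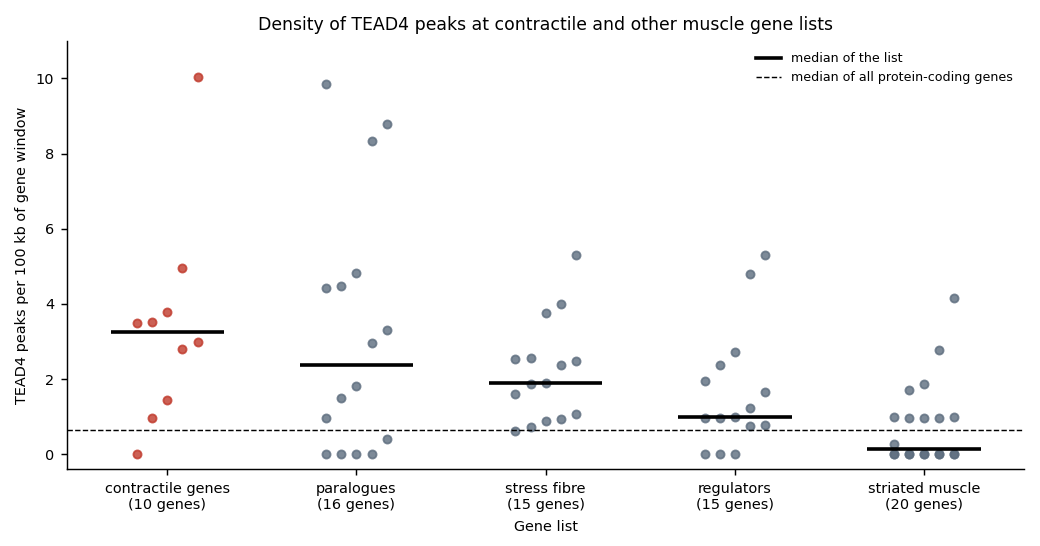
TEAD4 peaks per 100 kb of gene window (y axis) for each gene of the 5 lists (x axis, points). The thick bar is the median of the list and the dashed line the median of all protein-coding genes, 0.66. TPM1 stands highest among the contractile genes at 10.04, and the striated muscle genes lie lowest, with a median of 0.14.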

How the data were processed

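TEAD4 ChIP-seq of LX-2 cells was cross-linked with formaldehyde, sequenced as single-end reads and mapped by the authors to hg38 with Chromap, and peaks of replicates 1 and 3 were combined with the ENCODE IDR pipeline. The peak caller is not given in the sources used here. In the deposited list of 10 columns, the authors gave for each peak a score (its IDR on a scaled range), the caller's signal value, a q-value as −log10, and how many bases the summit lies from the peak start. The methods do not describe the columns, which were identified by their layout and range. The values were used as deposited. The depth per sample is unknown, and the inputs were not analysed here on their own.

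No peak ran past the end of a chromosome of the hg38 reference, and genes came from GENCODE release 44 (20046 protein-coding gene records). A summit was assigned to a gene when it lay in the gene body or within 50 kb of any TSS, so that 1 peak can count for several genes. Density is the number of peaks per 100 kb of this window. Exact motif matches on either strand were sought up to 100 bp from each summit, and in flanking windows, equally wide, centred 2000 bp away. No test was made, since the list holds 1 combined value per peak. Shares have Wilson 95% intervals, and the interval of a median comes from order statistics. The alternatives tried were stricter sets of peaks, merged peaks, other reaches and TSS sets, and other motif windows and letters. The assignment and the motif search were checked on simulated data. Python 3.11.15, numpy 2.4.6, pandas 2.3.3, statsmodels 0.14.6 and pysam 0.24.0 were used.

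The named genes were all 10 contractile genes with every peak counted, and in each other list the 3 genes with the most peaks, with ties, and every gene with none. The contractile genes and the other lists were chosen with earlier results of these data known. The number of 7 or more peaks, the RUNX and E-box motifs, the promoter search and the division of peaks by distance from protein-coding TSSs were chosen after values were seen. Some sequences and 1 gene of the other lists are not reported here.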

Additional observations from a re-analysis of the deposited data

How the results depend on the processing

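The counts, levels and shares for the contractile genes were computed again under the alternatives, which gave 66 values, of which 60 stayed within the limits set for a change and 6 moved. When peaks under the list's median signal were dropped, 34 peaks were counted, with a median signal value of 120.5 and 1.92 peaks per 100 kb, which follows from leaving out the weaker peaks. With a reach of 10 kb, 39 peaks were counted. With a reach of 100 kb, the share with the AP-1 motif was 18.6%, beside 8.2% with 50 kb and 25.4% of all peaks. The cause was not tested. With the shorter core CATTCC, 45.9% of the contractile peaks and 46.8% of all peaks held the TEAD motif. CNN1 had no peak under any of the alternatives, and between 8 and 9 genes had one. ACTA2 had none with only the highest IDR score or only peaks above the list's median signal, and TPM2 had none with a reach of 10 kb or with only the peaks nearest to its own TSS. Of 100 counts for single genes, 84 stayed within 1.5 times the count given and 16 moved.

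The list gives no value per replicate, and how far the peaks vary between replicates was not tested. No paired analysis was possible because both replicates were merged into 1 list, and for the same reason none was left out in turn. The depth per sample is unknown, so a gene without a peak, such as CNN1, had none that passed the authors' threshold, which is not the same as no binding.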

Other observations

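Over all 21113 peaks, the CArG box was found in 57 of the 3983 within 2500 bp of a protein-coding TSS (1.43%, Wilson 95% interval 1.11 to 1.85) and in 276 of the 17130 farther away (1.61%, 1.43 to 1.81), so its share did not separate with distance at this number of peaks. The contractile promoters with a CArG box, TAGLN and MYL9, are 2 of 231 such promoters among 19061. Among the striated muscle genes, MYL3, a ventricular myosin light chain gene, had 5 peaks, and all 5 held a TEAD motif, with the highest signal value at 189.7. None of the 5 was within 2500 bp of a MYL3 TSS, and 23.0% of all peaks held the motif. MYL3 was singled out after its values were seen.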
